A study of Rattus norvegicus with 6 samples.

Results

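The genes of 6 inward rectifier potassium channel subunits, Kcnj2, Kcnj3, Kcnj5, Kcnj8, Kcnj11 and Kcnj12, were followed in rat left atria after rapid atrial pacing (RAP). The members were fixed by name, and each was read from the probe set that carries its symbol alone. Each of the 6 has 1 such probe set among the 29214 on the array, and all 6 lay above the signal filter that kept 11237 genes. The tissue came from 6 adult male Sprague-Dawley rats, 1 array per rat, 3 of them with RAP at 70 ms from beat to beat and 3 with control pacing (Con) at 140 ms, each for 48 hours. Every rat, control or RAP, carried a right atrial electrode and drank atenolol, a beta-blocker that slows atrioventricular conduction, and was given heparin before death, and the ventricles of both groups beat at the same rate. Each RAP rat had a control that was operated on with it and paced beside it at the same time. Pairs 1 to 3 join the rats that share a replicate number in the labels, on the assumption that these numbers mark those pairs. Only pairs that gave RNA of high quality were arrayed, and the left atria were whole pieces of tissue, so a lower share of a cell type and less RNA per cell cannot be told apart.

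Inward rectifier channels are tetramers of Kir subunits that pass potassium into the cell more easily than out of it, because intracellular polyamines and magnesium plug the pore at positive voltages. Kir2 channels carry IK1, the current that holds the resting potential of cardiomyocytes and shapes the end of repolarization. Kir3 channels carry IK,ACh, the current by which acetylcholine and adenosine slow the atrium through G protein βγ subunits. Kir6 subunits join sulfonylurea receptors to form KATP channels, which open when the ATP of the cell falls. All of them need the membrane lipid PIP2 to conduct. An increase of IK1 is a known feature of atria that have been driven fast, and the comparison asks whether the transcripts of these channels differed between fast and near normal atrial rates. The paper names as a limit that control pacing also drove the atria somewhat fast, which narrowed the contrast between the groups.

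Values are log2 signals per probe set, on which a step of 1 is a doubling, and a change is RAP minus control within a pair, averaged over the 3 pairs. The words rose and fell are kept for genes past the thresholds of the study's methods (fold change over 1.3 and p under 0.05 before any adjustment), here in a limma fit that blocks on the pair, and such genes are said to have passed. Signals of different probe sets are not compared as levels, since each has its own brightness. The array medians lay between 5.82 and 5.85. Control 3 stood apart in ventricular and erythroid markers. Myl2, the ventricular regulatory myosin light chain, had a log2 signal of 8.60 there and between 4.28 and 4.89 on the other 5 arrays. On control 3 the erythroid markers (4 genes) averaged 2.15 above their means and the ventricular markers (5 genes) 1.65. Markers of cardiomyocytes in general (9 of 9 measured, none of them near background) averaged 11.63 to 12.01 in the controls and 12.05 to 12.47 with RAP, with changes of 0.42, 0.83 and 0.04 in pairs 1, 2 and 3. Their part in the changes below was not tested.

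Of the 6 members, 1 rose with RAP (Kcnj2) and 0 fell, where 2.94% of all genes rose and 3.45% fell at the same thresholds. All but Kcnj8 had a change above 0 (5 of 6), and the median over the members was 0.43, beside 48.8% of genes above 0 and a median of -0.01 over all kept genes. The adjusted p (limma) was 0.756 or above for each of the members, and 0.756 was also the smallest over the 19907 kept probe sets. An exact sign test over 3 pairs has 0.25 as its smallest two-sided p. The values of RAP and control arrays overlapped in each member but Kcnj12, a separation found in either direction in 15.4% of genes.

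**Figure D1:**
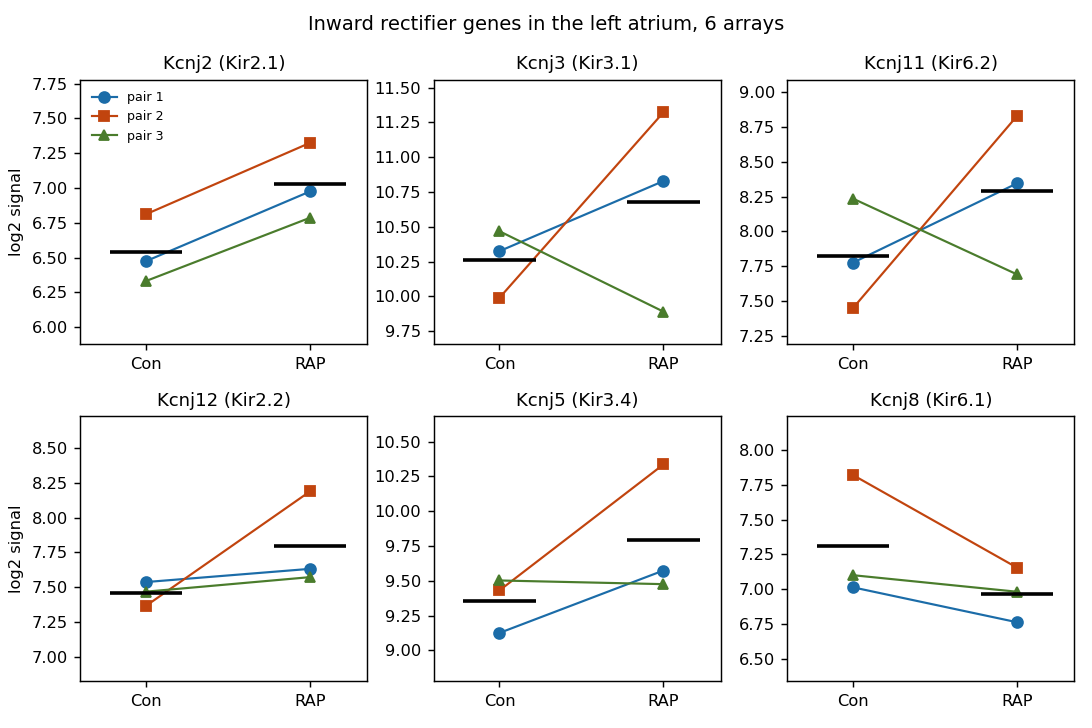
Log2 signal of the 6 inward rectifier genes on the 6 arrays, control pacing (Con) on the left and RAP on the right of each panel; lines join the rats of a pair and black bars are group means; each vertical axis spans the same log2 range around its own gene. The 3 lines of Kcnj2 run parallel, and those of Kcnj3 and Kcnj11 cross, with pair 2 rising and pair 3 falling.

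Kcnj2, which encodes Kir2.1, the main IK1 subunit, was higher with RAP by nearly the same amount in each pair, as pairs were assumed from the replicate numbers. A check of this matching, given with the processing below, does not bear it out. The log2 signal of Kcnj2 was 6.47, 6.81 and 6.33 in controls 1, 2 and 3 and 6.98, 7.32 and 6.79 in RAP 1, 2 and 3. The rats of pair 2 had the highest and those of pair 3 the lowest signal within both groups, so that RAP 3 lay just under control 2 although each RAP rat exceeded its own control. The changes were 0.50, 0.51 and 0.45, a mean of 0.49 (moderated SE 0.13, 95% interval 0.16 to 0.82), which is 1.40-fold (limma, adjusted p = 0.756). By its unadjusted p the probe set ranked 262 of 19907. A rise in each of the 3 pairs is found in 14.3% of genes. The gap between the largest and the smallest pair change of Kcnj2 was matched or undercut by 1.13% of genes, and the SE taken from its 3 pair changes alone was 0.02. By limma, which pulls each variance to a common value, the SE was 0.13 with the pair as a block and 0.19 without it. Beside Kcnj2, the mean change of the 9 cardiomyocyte markers ran from 0.04 in pair 3 to 0.83 in pair 2. Among them Actc1, cardiac actin, was at 0.16, 0.16 and 0.12 in pairs 1 to 3. In pair 3, Tnnt2 (-0.05), Tnni3 (-0.23) and Pln (-0.69) were below 0 and the other markers above 0. The mean of the 5 adipocyte markers was above 0 in each pair, as Kcnj2 was, with 0.42, 0.39 and 0.59, and 2 of the 5 (Adipoq and Cidec) passed. The others did not pass, with Plin1 at 0.04, 0.07 and 0.97, Fabp4 at 0.19, 0.56 and 0.15, and Lep at -0.25, 0.20 and 0.05. The average log2 signal of the 5 ran from 5.96 to 7.54 in the controls and from 6.38 to 8.14 with RAP. The part of either list in the Kcnj2 values was not tested. Kcnj2 is among the genes that the study picked on these arrays by a paired test, which favors a small spread over pairs. Neither its passing nor its small spread is thus independent evidence. The study also lists RT-qPCR primers for Kcnj2, and reports that RT-qPCR of its chosen genes correlated linearly with the arrays. That correlation runs across genes, and the paper's text gives no RT-qPCR value of Kcnj2. Its methods set a fold change for the chosen genes that lies above the 1.40 found here. Kcnj2 no longer passed without pair 1 or pair 2, or, unpaired, without control 1, control 3, RAP 1 or RAP 2, with changes between 0.34 and 0.63 over all 9 settings that left out a pair or an array.

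**Figure D2:**
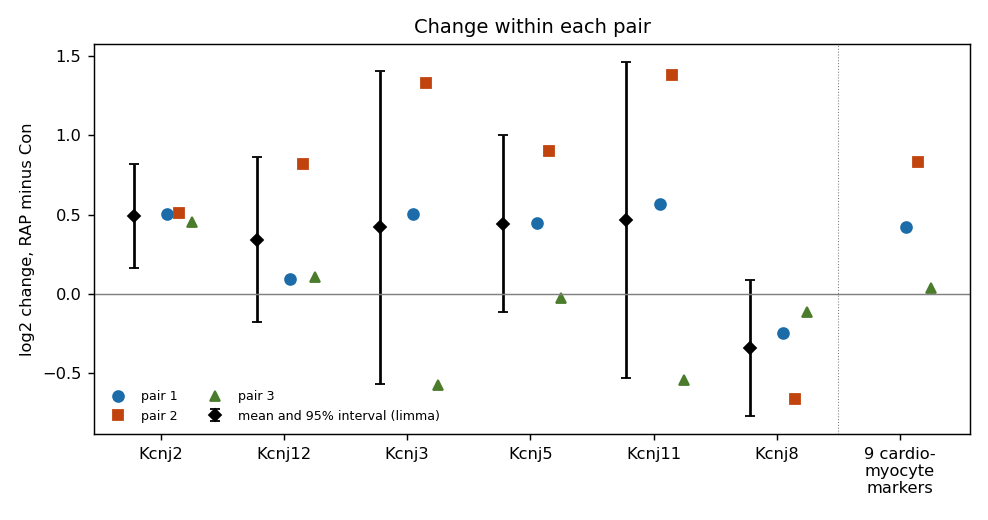
Log2 change, RAP minus control, of each member in pairs 1, 2 and 3 (coloured points) with the mean and its 95% interval from limma (black), and to the right of the dotted line the mean change of 9 cardiomyocyte markers in each pair. Kcnj2 is the member whose interval leaves out 0, and its 3 pairs lie between 0.45 and 0.51.

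The bases before the transcription start of Kcnj2 are shown because this is the member that passed and because its upregulation has been linked to NFAT, a calcium-dependent factor. The link that the paper cites is an indirect one, through microRNAs that NFAT inhibits. It reports lower amounts of some of these microRNAs with RAP in the left atrium, which are not measured here. The sequence is the 250 bases upstream of the RefSeq start in rat build GRCr8, chr10:96559975-96560224, plus strand, 5′ to 3′. Capitals mark matches on either strand to GGAAA (the NFAT core), GGGCGG (the GC box), CCAAT (the CCAAT box) or TATAAA (the TATA box).
Kcnj2: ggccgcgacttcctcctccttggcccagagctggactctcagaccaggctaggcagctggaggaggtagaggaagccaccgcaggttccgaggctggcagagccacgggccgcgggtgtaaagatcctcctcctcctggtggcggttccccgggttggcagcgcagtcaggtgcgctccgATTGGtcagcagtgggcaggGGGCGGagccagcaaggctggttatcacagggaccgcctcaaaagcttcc
Kcnj2 has 1 GC box, which begins 50 bases before the start, and 1 CCAAT box read on the other strand, which begins 70 bases before it, and these letters hold no GGAAA and no TATAAA. Among 33469 rat promoter windows of this length, 30.5% hold GGGCGG, 34% CCAAT, 56.9% GGAAA and 12.9% TATAAA. A match is only a run of letters, and its absence in this window says nothing of the factor.

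Kcnj12 encodes Kir2.2, which forms mixed channels with Kir2.1, and its change rested on pair 2. Its log2 signal was 7.54, 7.37 and 7.47 in controls 1 to 3 and 7.63, 8.19 and 7.57 in RAP 1 to 3. The controls were close together (SD 0.09), RAP 1 and RAP 3 stood just above them, and RAP 2 stood well above the rest. The changes of 0.09, 0.82 and 0.10 averaged 0.34 (SE 0.20, interval -0.18 to 0.86, limma adjusted p = 0.773), and without pair 2 the mean was 0.10. Of the other Kir2 genes, Kcnj4 (Kir2.3) changed by -0.02 (SE 0.13) and Kcnj14 (Kir2.4) by 0.20 (SE 0.14), both with signals under 6 on every array. Whether Kcnj2 changed more than Kcnj12 was not tested.

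The 2 subunits of the acetylcholine-gated channel, Kcnj3 (Kir3.1) and Kcnj5 (Kir3.4), were higher with RAP in pairs 1 and 2 and not in pair 3. Kcnj3 had a log2 signal of 10.33, 9.99 and 10.47 in controls 1 to 3 and of 10.83, 11.32 and 9.89 in RAP 1 to 3, so that RAP held both the highest and the lowest array. Its changes of 0.50, 1.33 and -0.58 averaged 0.42 (SE 0.38, interval -0.57 to 1.41, limma adjusted p = 0.823). Without pair 3 it rose by 0.92, without RAP 3 alone by 0.81, and without pair 2 the mean was -0.037. Without control 3, the array with high ventricular and erythroid markers, the change was 0.52 and did not pass.

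Kcnj5 had a log2 signal of 9.13, 9.43 and 9.50 in controls 1 to 3 and of 9.57, 10.34 and 9.48 in RAP 1 to 3. RAP 3 lay just under its own control, and RAP 2 stood above all other arrays. The changes of 0.45, 0.91 and -0.03 averaged 0.44 (SE 0.21, interval -0.12 to 1.00, limma adjusted p = 0.758), and without pair 3 Kcnj5 rose by 0.68. The profiles of Kcnj3 and Kcnj5 over the 6 arrays, each taken around its own mean, differed by a root mean square of 0.31 on the log2 scale. Kcnj3 lay nearer to Kcnj11 (0.14), the closest of the 15 pairs of members, and Kcnj5 nearer to Kcnj12 (0.18) and Kcnj2 (0.22). The promoter of Kcnj5, chr8:39011097-39011346 in GRCr8, minus strand, is printed 5′ to 3′ with the same capitals, as a member whose window holds the NFAT core.
Kcnj5: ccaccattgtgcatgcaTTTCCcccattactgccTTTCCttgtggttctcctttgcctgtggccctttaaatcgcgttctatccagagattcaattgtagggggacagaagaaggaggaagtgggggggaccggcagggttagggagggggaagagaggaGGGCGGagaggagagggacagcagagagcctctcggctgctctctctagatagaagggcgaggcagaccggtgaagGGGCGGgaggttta
It holds 2 matches to the NFAT core, both read as TTTCC and beginning 233 and 216 bases before the start, and 2 GC boxes.

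Chrm2, the muscarinic M2 receptor that opens Kir3 channels when the vagus releases acetylcholine, rose with RAP. Its log2 signal was 10.20, 10.24 and 10.56 in controls 1 to 3 and 10.93, 11.28 and 10.70 in RAP 1 to 3. The groups did not overlap, a separation found in either direction in 15.4% of genes. The changes of 0.73, 1.04 and 0.15 averaged 0.64 (SE 0.21, limma adjusted p = 0.756). The 9 cardiomyocyte markers averaged 0.42, 0.83 and 0.04 in pairs 1 to 3, and their part in the Chrm2 values was not tested. Adora1, the adenosine A1 receptor that acts on the same channel, changed by 0.92, 0.29 and 0.11, a mean of 0.44 (SE 0.20, limma adjusted p = 0.756), and did not pass, though it did with array weights (0.81) and without pair 3 (0.61), control 2 (0.55) or control 3 (0.56). A list of receptors, G protein subunits and regulators that feed this channel had 18 kept genes, with a median change of 0.07. Beside 2.94% of all genes that rose and 3.45% that fell, 1 of the 18 rose (Chrm2), 1 fell and 16 did not pass. The one that fell was Gng12, a G protein γ subunit (-0.79, -1.21 and -0.30, a mean of -0.77, SE 0.21). Gnb5, the β subunit that works with RGS proteins to shut the channel off, changed by 0.39 (SE 0.16) and did not pass, though it did without the pairing, with no signal filter, with array weights (0.46), and without pair 3 (0.53), control 3 (0.52) or RAP 1 (0.44). Chrm2 did not pass without pair 1 or without pair 2, nor by the paired t-test, and neither did Gng12.

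Kcnj11 and Kcnj8, the pore subunits of KATP channels, had mean changes of opposite sign, though neither passed and both were below 0 in pair 3. Whether the 2 changes differed was not tested. Kcnj11 (Kir6.2), the subunit of cardiomyocytes, had a log2 signal of 7.78, 7.45 and 8.24 in controls 1 to 3 and of 8.35, 8.83 and 7.69 in RAP 1 to 3. Control 3 was the highest control and RAP 3 the lowest RAP array, so that pair 3 opposed the others. Its changes of 0.57, 1.38 and -0.54 averaged 0.47 (SE 0.38, interval -0.53 to 1.47, limma adjusted p = 0.810). Without pair 3 it rose by 0.97 and without RAP 3 alone by 0.77. Without control 3 the change was 0.68, which did not pass, and without pair 2 it was 0.013. The array with the high Myl2 and erythroid signals was thus also the control array with the highest Kcnj11 signal, and the part of ventricular tissue or blood in this was not tested.

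Kcnj8 (Kir6.1), which is best known from vascular smooth muscle and pericytes, was the member with a negative change, and it was lower in each pair. Its log2 signal was 7.01, 7.82 and 7.10 in controls 1 to 3 and 6.76, 7.16 and 6.98 in RAP 1 to 3. Control 2 stood above the other 5 arrays, which overlapped. The changes of -0.25, -0.66 and -0.12 averaged -0.34 (SE 0.16, interval -0.77 to 0.08, limma adjusted p = 0.756), and a fall in each of the 3 pairs is found in 14.1% of genes. Without pair 2 the mean was -0.18, and without control 2 alone it was -0.09, in a range of -0.49 to -0.09 over the settings that left out a pair or an array. Control 2 was also the array with the highest macrophage markers (8 genes, 1.10 above their means) and fibroblast markers (6 genes, 0.65), while smooth muscle and pericyte markers (8 genes) changed by 0.53, -0.18 and 0.03 in pairs 1 to 3. Their part in the Kcnj8 values was not tested. The Kcnj8 promoter is printed to set it beside that of Kcnj2, in GRCr8, chr4:177246549-177246798, minus strand, 5′ to 3′.
Kcnj8: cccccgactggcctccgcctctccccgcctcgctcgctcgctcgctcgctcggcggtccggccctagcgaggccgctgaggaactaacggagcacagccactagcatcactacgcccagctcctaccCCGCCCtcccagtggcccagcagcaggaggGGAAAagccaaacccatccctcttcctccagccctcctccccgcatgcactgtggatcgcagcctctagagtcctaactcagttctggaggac
It holds 1 GC box, read on the other strand, and 1 NFAT core, and its GC content of 66.8% is close to the 66% of Kcnj2, beside 57.2% in Kcnj5.

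The sulfonylurea receptors, which sense nucleotides for the KATP channel, did not pass. In the RefSeq gene order Abcc9 (SUR2) follows Kcnj8 and Abcc8 (SUR1) follows Kcnj11 as the next protein-coding gene. Abcc8, the receptor known from atrial KATP channels of rodents, had changes of 0.70, 0.75 and -0.19, the same signs by pair as its neighbor Kcnj11, with a mean of 0.42 (SE 0.23, limma adjusted p = 0.770). It passed without control 3 (0.59), RAP 3 (0.56) or pair 3 (0.73), and with array weights (0.66). Abcc9 had changes of 0.21, 0.38 and 0.49, opposite in sign to its neighbor Kcnj8 in each pair. Its mean of 0.36 (SE 0.14, limma adjusted p = 0.756) is 1.28-fold and stayed just under the fold threshold, and its second probe set changed by 0.34. It passed after a further quantile normalization (0.39), without control 2 (0.45) and without RAP 1 (0.46). Ank2, ankyrin-B, which anchors Kir6.2 in the membrane, rose by 0.62 (0.62, 1.12 and 0.12, SE 0.23), and did not pass by the paired t-test, without pair 1, without pair 2 or without control 2. The 9 cardiomyocyte markers averaged 0.42, 0.83 and 0.04 in pairs 1 to 3, and their part in the Ank2 values was not tested. Kcnj16, which precedes Kcnj2, and Kcnj1, which follows Kcnj5, had signals under 5 on every array.

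Of 9 other Kir genes of the rat, which serve mainly brain, kidney and other epithelia, 6 passed the signal filter, 0 of these rose or fell, and their changes ran from -0.20 to 0.25 with a median of 0.03. All 3 of Kcnj1, Kcnj13 and Kcnj16 stayed under a log2 signal of 5, and none of the 9 exceeded 6.

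Genes that place, feed or block the channels went both ways. Over 6 lists with 66 kept genes, 6 rose and 3 fell, beside the 6.39% of all genes that passed in either direction, and the median change was 0.05. Of 13 kept scaffold and membrane partners of Kir2 channels, 2 rose and 0 fell, with a median of -0.07. One was Dmd, dystrophin, which ties the cytoskeleton of muscle cells to a membrane complex that also holds Kir2 channels, with a log2 signal of 7.79, 7.75 and 8.46 in controls 1 to 3 and of 8.91, 8.98 and 9.06 in RAP 1 to 3. Its changes of 1.12, 1.23 and 0.59 averaged 0.98 (SE 0.18, limma adjusted p = 0.756), and Dmd passed in each of the alternatives tried. The other was Cav3, the muscle caveolin that binds Kir2.1 (1.26, 0.91 and 0.22, a mean of 0.80, SE 0.23), which did not pass in 7 of the 19 alternatives (the paired t-test, and without pair 1, pair 2, control 1, control 2, RAP 2 or RAP 3). Dlg1 (SAP97), the PDZ scaffold that binds the tail of Kir2 subunits, changed by -0.07. Both Dmd and Cav3 are genes of muscle cells. The cardiomyocyte markers given above, of which 3 of 9 passed, had mean changes of 0.42, 0.83 and 0.04 in pairs 1 to 3. Their part in the Dmd and Cav3 values was not tested.

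Polyamines are the molecules that plug the pore of these channels. Of 8 genes of their pathway 2 rose and 1 fell, beside 2.94% of all genes that rose and 3.45% that fell. Azin1, which frees ornithine decarboxylase from its inhibitor, rose by 0.77 (1.01, 0.76 and 0.55 in pairs 1 to 3, SE 0.15). Odc1, ornithine decarboxylase, the first enzyme of the pathway, rose by 0.51 (0.61, 0.24 and 0.70, SE 0.15), and Sat1, which acetylates spermine and spermidine for export, fell by 0.68 (-0.86, -0.76 and -0.41, SE 0.15). Each of the 3 kept its direction in all pairs (limma adjusted p = 0.756 for each), as 14.3% of all genes did upward and 14.1% downward. The median over the list was 0.27. Azin1 in the controls ran from 8.91 to 9.67 and with RAP from 9.67 to 10.22, so that control 3 lay level with RAP 2, and it did not pass, unpaired, without control 1, control 2 or RAP 3. Odc1 did not pass in a fit that left the pairing out, by the paired t-test, without pair 1 or pair 3, or without control 1, control 2, RAP 1 or RAP 3. Sat1 had values of 9.30 to 9.64 in the controls and 8.63 to 8.89 with RAP, which did not overlap, as in 15.4% of genes in either direction. It did not pass without pair 1.

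Among 18 genes for enzymes that make or break down PIP2 and for G protein subunits that act on them, the median change was -0.03. Of these, 0 rose and 1 fell, beside 2.94% of all genes that rose and 3.45% that fell. The one that fell was Plcd1, a phospholipase C that cleaves PIP2 (-0.98, -0.36 and -0.22, a mean of -0.52, SE 0.20), and it did not pass in 12 of the 19 alternatives, among them those without pair 1, without pair 2 and without any single array but control 3.

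**Figure D3:**
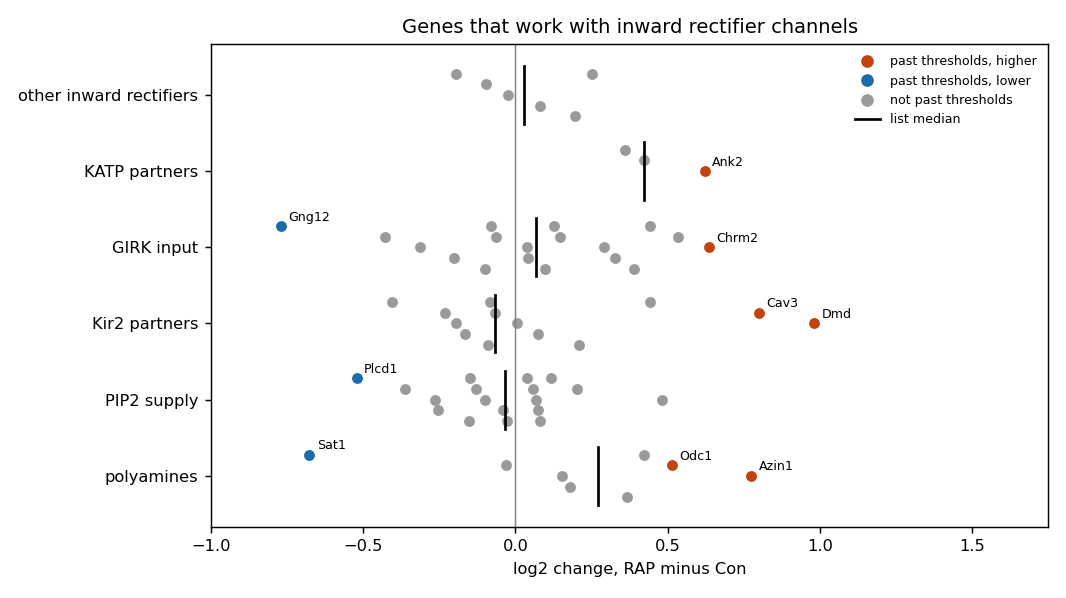
Log2 change, RAP minus control, of the 66 kept genes on 6 lists of genes that work with inward rectifier channels, 1 point per gene, coloured by whether it passed the thresholds, with the median of each list as a black line. Most points lie near 0 and did not pass; Dmd, Cav3 and Azin1 lie farthest to the right and Gng12 and Sat1 farthest to the left.

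For each member the 3 genes with the most similar profile over the 6 arrays were found by the smallest root mean square difference of log2 values around each gene's mean, a description in which every gene shares the same arrays. Kcnj2 lay nearest to LOC100361261 (0.05), to Phkg1, the muscle phosphorylase kinase subunit (0.06), and to Atp12a, a proton pump subunit (0.11). Kcnj3 lay nearest to Myocd, the coactivator myocardin (0.05), Bnip3 (0.09) and Ppargc1a, the mitochondrial coactivator PGC-1α (0.12). Kcnj11 lay nearest to Akap1 (0.05), Hrc, a calcium-binding protein of the sarcoplasmic reticulum (0.05), and Corin, the protease that activates natriuretic peptide (0.06). Kcnj5 lay nearest to Sphkap (0.07), Tnik (0.07) and Slc4a3, an anion exchanger (0.08), and Kcnj12 to Or7c19 (0.05), Emc9 (0.06) and Crat, carnitine acetyltransferase (0.06). The nearest profiles to Kcnj8 were those of Sod2, the mitochondrial superoxide dismutase, Acod1, a macrophage enzyme, and Cebpd, an acute-phase transcription factor (all 0.12). Of these 18 genes LOC100361261, Phkg1, Slc4a3 and Cebpd passed the thresholds themselves, the last of them lower.

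**Figure D4:**
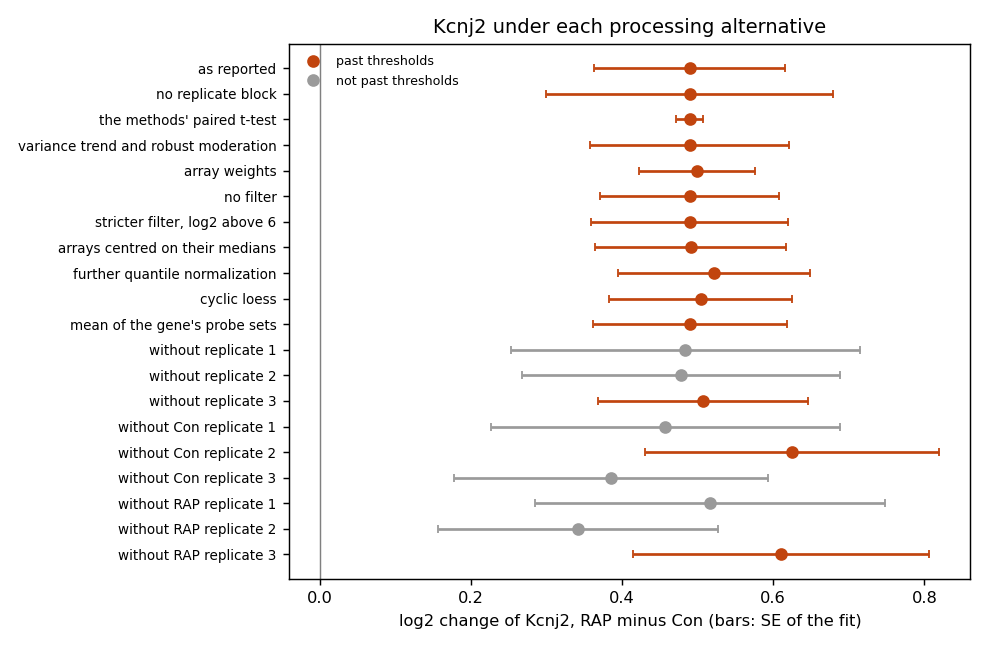
Log2 change of Kcnj2, RAP minus control, as reported and under 19 processing alternatives, with the SE of each fit as bars and colour for whether it passed the thresholds. The change stays between 0.34 and 0.63, and each of the 6 settings that do not pass leaves out a pair or an array.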

How the data were processed

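Left atrial RNA of 6 rats was hybridized to 1 whole-transcript rat array each. The deposited values are log2 signals that the authors made with the RMA method in Partek's software, with background correction, quantile normalization and a summary per probe set, which draws the arrays to 1 distribution. The version and genome build are not given in the sources used here. The array annotation gives 15310 probe sets a single symbol, 323 more than 1 and 13581 no symbol. Probe sets with a log2 signal above 5 on at least 1 array were kept (19907, of 11237 genes), and the brightest probe set on average stands for its gene. limma 3.58.1 in R 4.3.3 was fitted over all kept probe sets with the pair as a block (2 residual and 2.76 prior degrees of freedom), and p-values were adjusted by Benjamini and Hochberg's method over all of them. The fit was run on data simulated from the same model with the assumed pairs, which cannot test the matching or the noise of the real arrays. With 3 arrays per group the number of arrays limits the precision.

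Pairs join the arrays with the same replicate number in the labels. The study's methods describe pairs but do not say which arrays form them, so this matching was assumed. As a check, the deviations of the 2 arrays of a pair from their group means were correlated across probe sets at 0.22, -0.24 and -0.32 in pairs 1, 2 and 3. The value is negative in pairs 2 and 3, so this check does not bear out the matching. The paper reports likeness within each pair in a principal component analysis that it does not show. The changes by pair and the paired SEs rest on the matching.

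The members, the 6 lists of partner genes, the 10 lists of cell type markers and the thresholds were chosen with earlier results of these data known. Named are the 6 members, the list genes past the thresholds, Abcc8, Abcc9, Chrm2 and Adora1, and the 3 genes nearest in profile to each member. Further list genes beside these (Kcnj4, Kcnj14, Gnb5, Dlg1, Plcb4) were named after their values were seen. So were the markers Actc1, Tnnt2, Tnni3, Pln, Adipoq, Cidec, Plin1, Fabp4 and Lep. Of the 77 list genes 72 were matched to a probe set by symbol, and the others were not analysed here. Promoter sequences are RefSeq's, for 3 of the 6 members. The alternatives were a fit with no replicate block, the paired t-test of the study's methods, robust moderation with a variance trend, weights for the arrays, a stricter signal filter (log2 above 6) or none, 3 other scalings, the mean of a gene's probe sets, and leaving out each pair or each array, the last unpaired.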

Additional observations from a re-analysis of the deposited data

How the results depend on the processing

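Kcnj2 passed in 13 of the 19 alternatives and kept its direction in all of them, with 0.49 (SE 0.19) without the pair as a replicate block, the same mean with a wider error. Leaving out a pair or an array gave 0.34 to 0.63. The members that rose numbered 4 with array weights (Kcnj2, Kcnj3 at 0.53, Kcnj5 at 0.47 and Kcnj11 at 0.59) and from 0 to 4 with a pair or array left out, and 0 members fell in any alternative. Over the same settings Kcnj3 ran from -0.037 (without pair 2, where its sign turned) to 0.92, Kcnj5 from 0.17 to 0.68, Kcnj11 from 0.013 (also without pair 2) to 0.97, Kcnj12 from 0.10 to 0.46 and Kcnj8 from -0.49 to -0.09. Kcnj12 and Kcnj8 passed in none of the alternatives. Of the genes on the partner lists, 6 rose and 3 fell. These numbers were 2 and 1 by the methods' paired t-test and 16 and 9 with array weights, and ran from 2 to 14 and from 0 to 11 with a pair or array left out. Without the replicate block Odc1 and Plcd1 no longer passed, while Gnb5 (0.39) and Plcb4, a phospholipase C (0.48), did, and no other call on the lists changed. With a pair or array left out, the change of Dlg1 (-0.07) ran from -0.13 to 0.053 and that of Kcnj4 (-0.02) from -0.093 to 0.014. The cause of these differences was not tested. Over all genes, those that rose and fell numbered 330 and 388 as reported, 407 and 463 without the block, 119 and 115 by the paired t-test, 1161 and 1489 with array weights, 56 and 105 without pair 1, 165 and 213 without pair 2, 1068 and 1429 without pair 3, and, unpaired, 769 and 962 without control 3.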

Other observations

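The mean changes of the other marker lists in pairs 1, 2 and 3 are given as values of the arrays on which the channel genes were read, and differences in cell types were not tested. Atrial cardiomyocyte markers (7 measured, with Bmp10 under a log2 signal of 5) changed by 0.18, 0.30 and -0.07, and ventricular markers (5) by 0.59, 0.83 and -1.74. Endothelial markers (8) changed by 0.35, 0.01 and -0.18, macrophage markers (8) by -0.50, -1.70 and 0.78, and fibroblast markers (6) by -0.49, -1.22 and 0.42. Neuronal markers (6) changed by 0.12, 0.01 and -0.50, and erythroid markers (4), in hearts that the methods say were rinsed of blood, by 0.0027, 0.63 and -2.86.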
